A study of Mus musculus with 9 samples.

Results

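The 10 genes described here encode the IL-7 receptor alpha chain (Il7r) and 9 other proteins grouped here under naive T cells. These are Tcf7, Lef1, Foxo1, Foxp1, Bach2, Satb1, Ikzf1, Ets1 and Txnip. The 10 genes were chosen by name, with earlier results of these data known, out of 55487 genes in the expression table. All 10 were among the 15536 genes that reached 1 TPM in 3 or more libraries and were tested. TPM gives the share of a gene's transcripts in a library after division by gene length, on a scale where each library sums to 1000000, so levels of different genes can be set side by side. RNA was measured in splenic CD4+ T cells of wild type C57BL/6 mice, enriched by removing other cells with antibodies. A first group of 3 libraries came from cells kept in culture medium with no antibody and no TRAIL (medium), for a time that the sources used here do not give. The second group of 3 was stimulated for 24 h with antibodies to CD3 (3 µg/ml) and to CD28 (2 µg/ml), which trigger the T cell receptor and its costimulator (stimulated). The third group of 3 received the same antibodies for 24 h together with TRAIL at 10 µg/ml, a ligand of the TNF family (stimulated with TRAIL). The cells were cultured in bulk and were not sorted by flow cytometry, and nothing in the labels says whether the libraries of a group came from separate mice or cultures. The p-values below therefore measure only the spread between these libraries, which may be technical.

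Naive T cells need IL-7 to survive, and Il7r carries that signal together with the common gamma chain. Foxo1 is a transcription factor that acts on Il7r and on homing genes in resting T cells, and it leaves the nucleus when antigen receptor signalling activates AKT. Tcf7 (TCF-1) and Lef1 are related HMG-box factors of naive and memory T cells, while Foxp1 and Bach2 restrain activation and effector differentiation. Satb1 organises chromatin in T cells, Ikzf1 (Ikaros) and Ets1 are lymphoid transcription factors, and Txnip binds thioredoxin and limits glucose uptake. On GRCm38 the table places the protein-coding gene Il7r (ENSMUSG00000003882) on the minus strand of chromosome 15 from 9505788 to 9530176, Txnip (ENSMUSG00000038393) on the plus strand of chromosome 3 from 96557957 to 96561883, and Satb1 (ENSMUSG00000023927) on the minus strand of chromosome 17 from 51736187 to 51833290. Several of the 10 genes, among them Foxo1, Foxp1, Bach2, Ikzf1 and Ets1, are also expressed in B cells.

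Txnip is known to be controlled by glucose through carbohydrate response elements and by FOXO factors, so the 250 bases before its start site are shown (chr3:96557707-96557956, plus strand, RefSeq, GRCm38.p6). Capitals mark a FOXO motif, TGTTTAC, read on the opposite strand, and the CACGAG box of the carbohydrate response element, which occurs here 2 times.
Txnip: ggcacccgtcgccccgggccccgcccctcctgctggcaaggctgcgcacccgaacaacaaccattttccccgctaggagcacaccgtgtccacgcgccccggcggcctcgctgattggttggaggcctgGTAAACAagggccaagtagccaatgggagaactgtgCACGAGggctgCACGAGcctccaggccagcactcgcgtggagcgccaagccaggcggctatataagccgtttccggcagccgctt
Satb1, the member that rose on stimulation, is shown over the same stretch (chr17:51833291-51833540, minus strand) and holds none of the motifs searched.
Satb1: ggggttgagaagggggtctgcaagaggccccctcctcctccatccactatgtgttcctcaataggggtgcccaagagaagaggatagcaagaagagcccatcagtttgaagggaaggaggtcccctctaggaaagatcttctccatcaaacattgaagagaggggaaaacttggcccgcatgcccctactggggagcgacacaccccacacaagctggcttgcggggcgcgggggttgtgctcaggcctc
For Il7r a stretch of 30 bases around the RefSeq start site (chr15:9529858-9529887, minus strand) is given, with a RUNX motif, TGTGGTT, in capitals that begins 3 bases after the first transcribed base. This start site lies 300 bases inside the gene as placed above.
Il7r: catagttccctgtcTGTGGTTtagcaggca

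The motifs were searched on both strands of RefSeq windows from 250 bases before to 50 bases after a start site, found for 9 of the 10 genes and not for Ets1. Where a gene had several windows, as Satb1 (5), Lef1 (4), Foxp1 (3), Tcf7 and Ikzf1 (2 each) did, only the window whose start site lay nearest to the table's gene start was searched. The start site used lay well inside the gene for Bach2 (178631 bases), Foxp1 (1728), Ikzf1 (922), Tcf7 (317) and Il7r (300), so bases before the table's gene start may not be covered there. The FOXO motif TGTTTAC occurred in 3.65% of all 32851 windows and, among the 9 windows searched, in that of Txnip alone, where it begins 121 bases before the start site. CACGAG occurred in 6.47% of windows and TGTGGTT in 5.27%. A pair of CACGAG boxes with 5 bases between them on the same strand, searched after both boxes had been seen in Txnip, was found in 1 window, that of Txnip. The TCF/LEF motif CTTTGAT (3.73% of windows), the E-box CACGTG (7.15%) and the AP-1 motif TGACTCA (5.2%) were in none of the 9 windows, and the ETS motif CCGGAAG (8.86%) was in that of Bach2 alone. These matches are letters in a sequence and say nothing about binding in these cells.

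The cell type markers and the libraries bear on every comparison below. The summed TPM of 9 T cell markers (Cd3d, Cd3e, Cd3g, Cd4, Cd5, Cd2, Cd28, Thy1 and Lat) was close in all groups, with ranges of 3278 to 3568 for medium, 3177 to 3417 for stimulated and 3293 to 3575 for TRAIL-treated libraries. Single T cell markers moved apart within this sum: on stimulation Cd2 rose (1.09 in log2 units), Cd3g fell (-1.04) and 7 of 9 were not called, among them Cd4 (-0.81, adjusted p = 0.00119). With TRAIL against stimulation alone 0 of 9 were called by limma, with 5 higher and 2 lower at an adjusted p under 0.05 (67.1% of all genes). The sum of 10 B cell markers ranged from 2404 to 2514 without stimulation, from 198 to 219 with the antibodies and from 997 to 1132 with TRAIL as well. Myeloid markers (12 genes) summed to 2054 to 2289, 87.2 to 107 and 1491 to 1723 TPM in the same order, and erythroid markers (5 genes) to 2061 to 2502, 24.8 to 39.6 and 607 to 656 TPM. In stimulated against medium libraries all 10 B cell, all 12 myeloid and all 5 erythroid markers fell, and with TRAIL against stimulated alone 9 of 10, 12 of 12 and 5 of 5 rose. Of these markers 0 were at the table's floor of 0.0001 TPM throughout a group. CD8 markers summed to 110 to 118, 94.2 to 105 and 46.9 to 49.4 TPM, and NK cell markers to 268 to 362, 226 to 303 and 96.8 to 109 TPM. Of the 5 NK cell markers 4 fell on stimulation, among them Ncr1 (-3.49), while Gzma, which makes up most of the sum in the stimulated libraries, was at 149 TPM in medium and 230.0 in stimulated cells (adjusted p = 0.00321). Of the 2 CD8 markers 0 were called by limma on stimulation, with 1 lower at an adjusted p under 0.05 (68.7% of all genes). With TRAIL against stimulation alone 2 NK cell markers rose and 1 fell, and 1 CD8 marker fell. The part of other cells in the members' levels was not tested, and in such bulk RNA fewer cells of a type and less RNA per cell cannot be told apart.

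**Figure D1:**
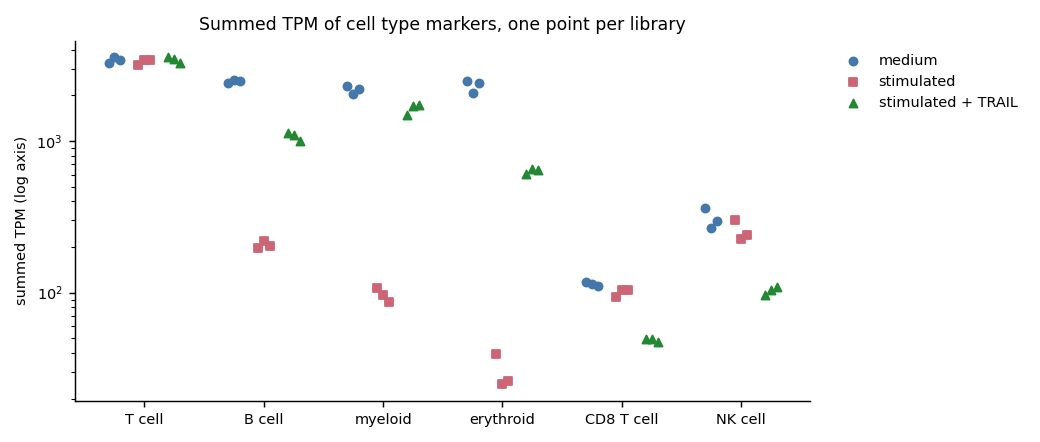
Summed TPM of the markers of 6 cell types on a log axis, with 1 point for each of the 9 libraries, coloured by group. T cell markers lie between 3177 and 3575 in all libraries, while B cell, myeloid and erythroid markers are lowest in the stimulated group and lie between the other 2 groups with TRAIL.

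Within the groups, single libraries stood apart. The library stimulated replicate 1 held the lowest value of its group for 10 of 10 members, with a median ratio of 0.698 to the mean of the other 2, and 57.3% of all genes tested were lowest there. TRAIL replicate 3 was likewise lowest for 10 of 10 members (median ratio 0.798, 61.4% of all genes), medium replicate 2 was highest for 9 of 10 (median ratio 1.2, 49.0% of all genes), and TRAIL replicate 1 was highest for 9 of 10 (median ratio 1.18, 54.2% of all genes). Calls that end without one of these libraries are named beside the value.

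The first comparison asks how these 10 genes differed after antibody stimulation. A gene was called when limma, a linear model fitted over all genes, gave a Benjamini-Hochberg adjusted p under 0.05 and the log2 fold change of TPM + 1 was at least 1 in size. Of the 10 members, 7 were called in stimulated against medium libraries, 6 lower and 1 higher, where 31.9% of all genes tested were called, 19.5% lower and 12.4% higher. By adjusted p alone the count was 9 (68.7% of all genes), and for 9 of 10 members the groups did not overlap (72.6% of all genes). The median log2 fold change of the members was -1.08, and that of all genes was -0.15. Under median-of-ratios scaling, which brought the median of all genes to -0.01, 4 members were called, 3 lower and 1 higher, with Tcf7 (-0.94), Lef1 (-0.97) and Foxp1 (-0.91) short of the fold.

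**Figure D2:**
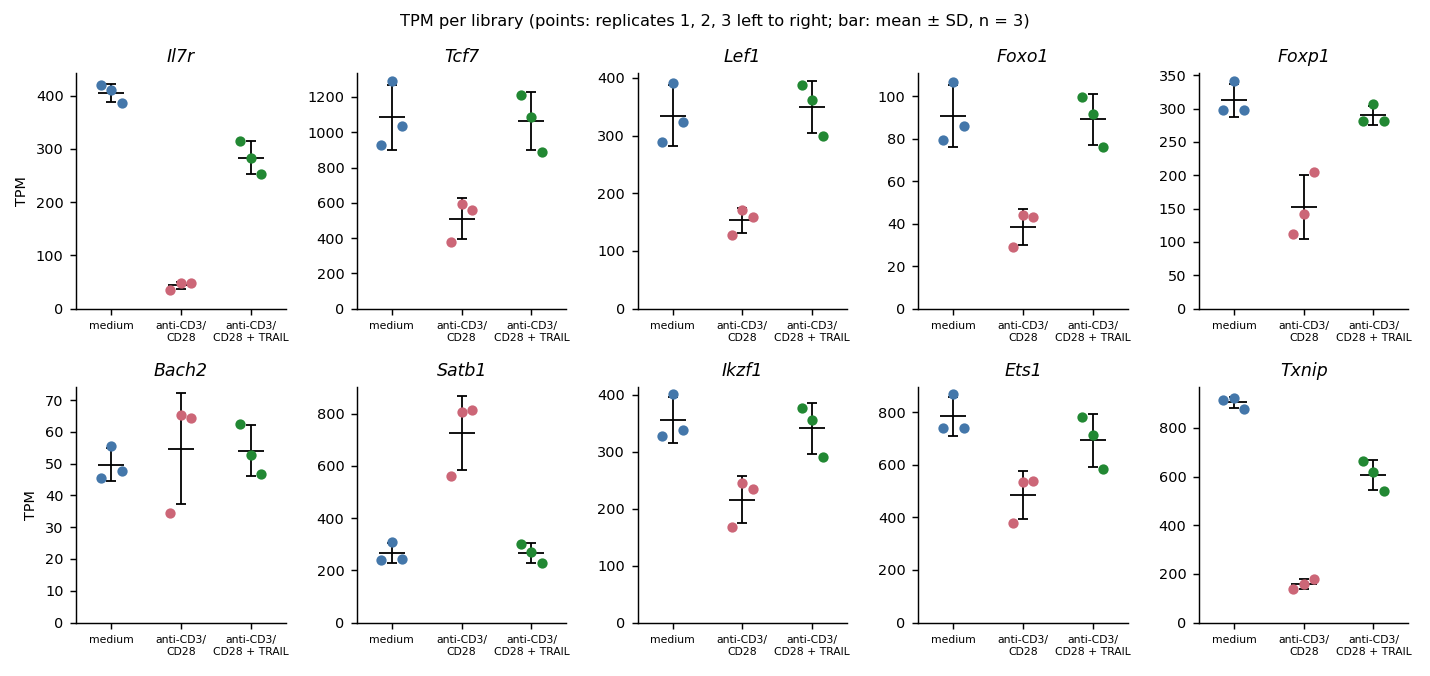
TPM of each of the 10 genes in the 9 libraries, with a linear axis from 0 for each gene, points for replicates 1 to 3 from left to right and bars for the mean ± SD (n = 3). Il7r and Txnip are lowest in the stimulated libraries (at most 47.4 and 178 TPM), Satb1 is highest there (562 to 813 TPM), and Bach2 overlaps in all groups.

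Il7r, the receptor gene, changed most of the 10 in both comparisons with the stimulated group. Its TPM in medium replicates 1, 2 and 3 was 420.0, 409.7 and 386.9, in stimulated replicates 35.5, 47.4 and 47.4, and in TRAIL-treated replicates 314.8, 282.8 and 252.3. All 3 stimulated libraries lay far below all others, and the TRAIL-treated libraries lay below the medium ones without overlap. On stimulation Il7r fell by 3.20 in log2 units (SE 0.13, limma adjusted p = 1.09e-08), from a mean of 406 ± 16.9 TPM to 43.4 ± 6.85 (SD, n = 3). With TRAIL it was 2.68 higher than with stimulation alone (adjusted p = 4.45e-08), at 283 ± 31.3 TPM.

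Txnip, the thioredoxin-binding protein whose upstream sequence is shown above, followed the same order. It was at 915, 922 and 879 TPM in medium, at 137, 157 and 178 in stimulated and at 663, 617 and 541 in TRAIL-treated libraries. The 3 groups did not overlap, with TRAIL-treated cells in the middle. Txnip fell by 2.52 on the log2 scale on stimulation (adjusted p = 2.69e-08) and rose by 1.94 with TRAIL against stimulation alone (adjusted p = 2.02e-07).

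The HMG-box pair moved by less. Tcf7 was at 930.1, 1289 and 1035 TPM in medium, 378, 594 and 559 in stimulated and 1213, 1088 and 887 in TRAIL-treated libraries. Lef1 was at 288, 392 and 323 TPM in medium, 128, 171 and 159 in stimulated and 387, 362 and 299 in TRAIL-treated libraries. For both genes the stimulated libraries were below all others, and the medium and TRAIL-treated libraries overlapped. Tcf7 fell by 1.10 in log2 units (SE 0.19, adjusted p = 0.000524) and Lef1 fell by 1.13 (adjusted p = 8.4e-05). The fall of Tcf7 lies close to the limit of a call and was -0.90 without stimulated replicate 1 and -0.97 without medium replicate 2. The ratio of Tcf7 to Lef1 TPM was 3.24 ± 0.04 in medium, 3.32 ± 0.31 in stimulated and 3.04 ± 0.09 in TRAIL-treated libraries (SD, n = 3).

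The forkhead factors fell as well. Foxo1 was at 79.2, 107 and 85.9 TPM in medium, 28.9, 43.9 and 43.0 in stimulated and 99.9, 91.7 and 76.1 in TRAIL-treated libraries, with no overlap between medium and stimulated. Foxp1 was at 298, 341 and 298 TPM in medium, 111, 141 and 205 in stimulated and 282, 307 and 282 in TRAIL-treated libraries. Foxo1 fell by 1.22 in log2 units (adjusted p = 0.000151) and Foxp1 fell by 1.07 (adjusted p = 0.000463), with a value of -0.87 for Foxp1 without stimulated replicate 1, which ends its call. Within the stimulated group Foxp1 was at 205 TPM in replicate 3 against 111 in replicate 1.

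Satb1 moved the other way. It was at 241, 310 and 244 TPM in medium, 562, 805 and 813 in stimulated and 303, 269.8 and 228 in TRAIL-treated libraries, so the stimulated libraries were above all others. It rose by 1.44 in log2 units on stimulation (adjusted p = 3.04e-05) and fell by 1.43 with TRAIL against stimulation alone (adjusted p = 3.24e-05). In mean TPM Satb1 was 8th of the 10 members in medium and in TRAIL-treated cells and 1st in stimulated cells, although its range there overlapped that of Tcf7, the next in order. The ratio of Satb1 to Tcf7 TPM, which does not depend on how a library was scaled, was 0.245 ± 0.012 in medium, 1.43 ± 0.07 in stimulated and 0.252 ± 0.005 in TRAIL-treated libraries.

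Ikzf1 and Ets1 were lower in all stimulated libraries but stayed under the fold needed for a call. Ikzf1 was at 328, 401 and 338 TPM in medium, 168, 245 and 235 in stimulated and 376, 355 and 291 in TRAIL-treated libraries, and its change on stimulation was -0.73 in log2 units (adjusted p = 0.00217). Ets1 was at 739.7, 870.0 and 740.5 TPM in medium, 379.9, 534 and 539 in stimulated and 782, 711 and 582 in TRAIL-treated libraries, and its change was -0.71 (adjusted p = 0.0027). The ratio of Ets1 to Ikzf1 TPM was 2.21 ± 0.05, 2.25 ± 0.06 and 2.03 ± 0.04 in the 3 groups.

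Bach2 overlapped between all groups and was called in none of the comparisons. It was at 45.6, 55.5 and 47.8 TPM in medium, 34.6, 65.2 and 64.4 in stimulated and 62.6, 52.7 and 46.7 in TRAIL-treated libraries. The log2 fold change on stimulation was 0.09 with a 95% interval from -0.41 to 0.58 (adjusted p = 0.742), and its sign turned when stimulated replicate 2 or 3 was left out. Without stimulated replicate 1, the library that stood apart, it was 0.38 with an adjusted p of 0.0264, under the fold needed for a call.

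The second comparison asks how TRAIL-treated cells differed from cells stimulated without it, and it shares the stimulated libraries with the first. Of the 10 members, 6 were called, 5 higher (Il7r, Tcf7, Lef1, Foxo1 and Txnip) and 1 lower (Satb1), where 30.9% of all genes were called, 16.6% higher and 14.3% lower. By adjusted p alone the count was 9 (67.1% of all genes), and the groups did not overlap for 9 of 10 (70.4% of all genes). Tcf7 rose by 1.07 in log2 units (adjusted p = 0.000628), Lef1 by 1.19 (adjusted p = 5.65e-05) and Foxo1 by 1.2 (adjusted p = 0.000175). Without stimulated replicate 1 or TRAIL replicate 1 the value for Tcf7 was 0.87 or 0.97, short of a call. Foxp1 had a log2 fold change of 0.97 (adjusted p = 0.000924), Ikzf1 of 0.67 (adjusted p = 0.00382) and Ets1 of 0.52 (adjusted p = 0.0146, but 0.0601 without TRAIL replicate 1 and 0.103 with no filter on low values), all 3 under the fold needed, and Bach2 of 0.03 (adjusted p = 0.922). The summed TPM of the 10 members was 4586 ± 445 in medium, 2538 ± 497 in stimulated and 4035 ± 507 in TRAIL-treated libraries.

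**Figure D3:**
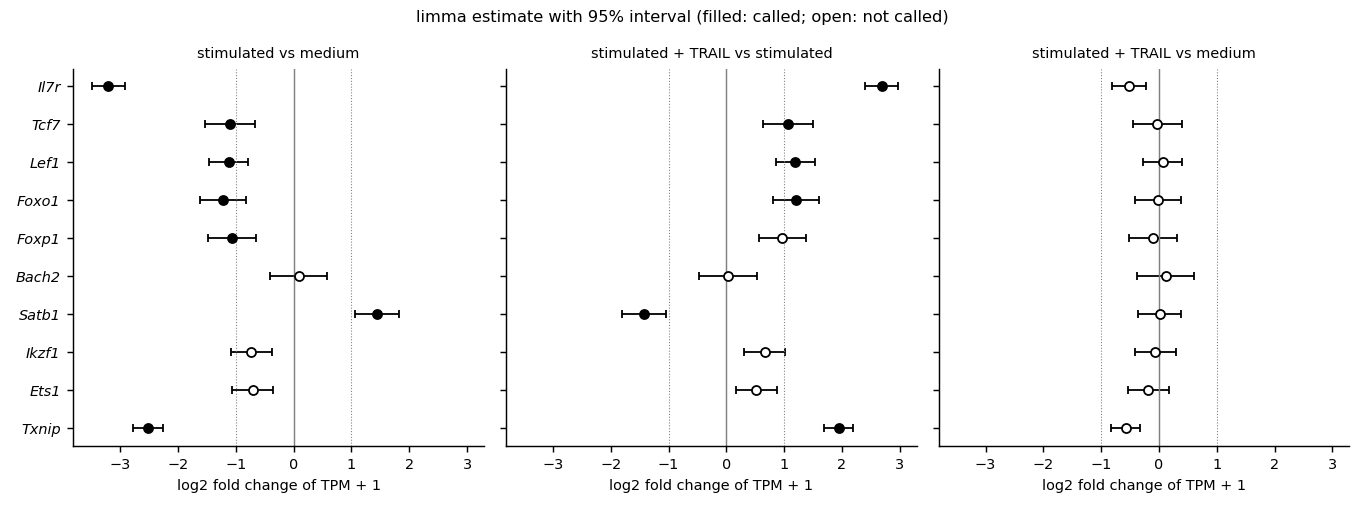
Log2 fold change of TPM + 1 from limma with its 95% interval for the 10 genes in the 3 comparisons, filled where called and open where not, with dotted lines at -1 and 1. Il7r (-3.20) and Txnip (-2.52) lie farthest to the left for stimulated against medium and farthest to the right with TRAIL, Satb1 lies on the opposite side, and all genes lie near 0 for TRAIL-treated against medium except Il7r and Txnip.

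The third comparison, TRAIL-treated against medium, called 0 of 10 members with limma, where 4.62% of all genes were called. At an unadjusted p under 0.05, and also at an adjusted p under 0.05, the count was 2, Il7r and Txnip (32.6% of all genes at the adjusted p). Il7r was 0.52 lower than in medium in log2 units (adjusted p = 0.0125) and Txnip 0.58 lower (adjusted p = 0.00453), and the libraries of the 2 groups did not overlap for either gene (50.6% of all genes did not overlap). The adjusted p of Il7r was 0.0524 without TRAIL replicate 3, which stood apart, and 0.0775 with no filter on low values. The median of all genes was -0.18 in this comparison. For the other 8 members the log2 fold change lay between -0.19 (Ets1) and 0.11 (Bach2). These small values rest on single libraries: with each of the 9 left out in turn, Ets1 ranged from -0.279 (without TRAIL replicate 1) to -0.0664 (without TRAIL replicate 3), Bach2 ranged from 0.00438 to 0.212 (without the same 2 libraries), and the signs of Tcf7, Lef1, Foxo1, Satb1 and Ikzf1 turned.

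The place of TRAIL-treated cells between the other groups was described on the log2 scale for the 7 members called on stimulation, with 0 at the medium mean and 1 at the stimulated mean. Il7r lay at 0.16 ± 0.05 and Txnip at 0.23 ± 0.06 (SD, n = 3), above 0 in all 3 TRAIL-treated libraries and beyond all medium libraries. Foxp1 lay at 0.10 ± 0.07, also above 0 in all 3 but overlapping the medium libraries. Tcf7 lay at 0.03 ± 0.21, Lef1 at -0.06 ± 0.17, Foxo1 at 0.02 ± 0.16 and Satb1 at 0.01 ± 0.14, a spread that takes in the medium mean. Beside Il7r and Txnip, the B cell and erythroid markers were also lower in TRAIL-treated than in medium libraries (7 of 10 and 5 of 5 called lower), as were NK cell markers (5 of 5, median -1.56) and CD8 markers (2 of 2, median -1.26). Of 12 myeloid markers 0 were called by limma, where 4.62% of all genes were called. At an adjusted p under 0.05 alone 4 of them were lower and 1 higher (32.6% of all genes). The part of these cells in the 2 genes' values was not tested.

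**Figure D4:**
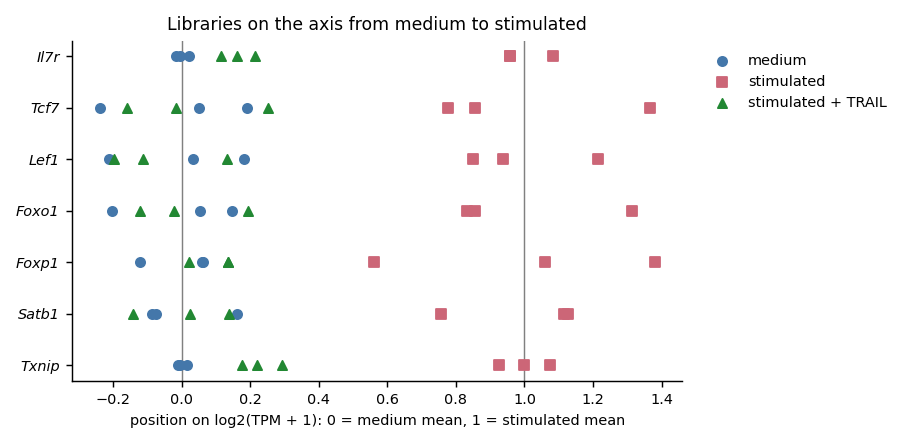
Position of each library on log2(TPM + 1) between the medium mean (0) and the stimulated mean (1) for the 7 genes called on stimulation, with 1 point for each library. The TRAIL-treated libraries lie at 0.11 to 0.21 for Il7r and 0.18 to 0.29 for Txnip, apart from the medium libraries, and overlap the medium libraries for Tcf7, Lef1, Foxo1, Foxp1 and Satb1.

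The genes whose profile over the 9 libraries was most like each member were found by the root mean square difference of centred log2(TPM + 1) among 9578 genes whose mean reached 10 TPM. The libraries fall into 3 groups, so this is a likeness of group patterns. Nearest to Il7r were Hp, which encodes haptoglobin (means of 21.6, 1.53 and 14.9 TPM for medium, stimulation and stimulation with TRAIL, difference 0.08), and Lyn, a Src family kinase of B and myeloid cells (134, 13.97 and 83.3 TPM, difference 0.11). Nearest to Txnip were Ctso (48.2, 9.0 and 36.3 TPM) and Kansl1l. Nearest to Tcf7 were Klf13 (124, 61.6 and 122 TPM) and Prex1, to Lef1 Bcas3 and Galnt10, to Foxo1 Arhgef1 and Zfp592, and to Foxp1 Abr and Manba. Satb1 was nearest to Ankrd13b (12.1, 32.7 and 11.8 TPM) and to Noc2l, a nucleolar protein gene (130, 328 and 121 TPM). Bach2 was nearest to Trak1, Ikzf1 to Dcaf5 and Ets1 to Atp6v0a2.

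Around the members, 7 lists of pathway partners were read, with 118 of their genes tested. On stimulation 29 of these were called higher and 32 lower, with TRAIL against stimulation alone 36 higher and 31 lower, and in TRAIL-treated against medium cells 10 higher and 1 lower. These are shares of 51.7%, 56.8% and 9.32% called, where 31.9%, 30.9% and 4.62% of all genes were called in the same comparisons. The lists were fixed with earlier results of these data known, so a share above that of all genes is not an independent result. By list the share called on stimulation was 71.4% for IL-7 receptor signalling, 66.7% for FOXO-linked genes, 52.4% for paralogs, 25% for cofactors, 45.5% for TXNIP and glucose sensing, 35.3% for kinases and regulators acting on FOXO1 and 85.7% for effector factors, so the cofactors were below the share over all genes and the kinases near it. With TRAIL against stimulation alone the shares were, in the same order, 71.4%, 66.7%, 47.6%, 41.7%, 72.7%, 35.3% and 85.7%. In the IL-7 receptor signalling list 8 of 14 genes rose on stimulation and 2 fell, while Il7r itself fell. Whether IL-7 or another cytokine acted on these genes was not tested. The inhibitors Cish and Socs1, which are STAT5 targets, rose by 4.21 and 4.18 in log2 units (adjusted p = 2.34e-09 and 6.01e-09), while the kinase Jak1 fell by 1.24 (adjusted p = 2.6e-05) and the PI3K subunit Pik3r1 fell by 1.67 (adjusted p = 3.82e-05). With TRAIL 2 of the 14 rose against stimulation alone, Pik3r1 and Jak1, and 8 fell, led by Cish (-3.64) and Socs1 (-3.23). The list median was 1.31 on stimulation and -1.11 with TRAIL.

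Of 18 genes linked to FOXO factors, quiescence and homing, 11 fell and 1 rose on stimulation and 6 were not called (median -1.62). The largest falls were in S1pr1, the receptor for egress from lymphoid organs (-3.33, adjusted p = 1.26e-08), and Klf3 (-3.33, adjusted p = 2.64e-08), and the gene that rose was Gabarapl1 (1.26). With TRAIL 12 rose and 0 fell by limma's call, led by Irs2 (3.86) and the antiproliferative Tob1 (3.67). At an adjusted p under 0.05 alone 13 were higher and 2 lower (67.1% of all genes). Against medium 2 were higher in TRAIL-treated cells, Irs2 (3.30, adjusted p = 1.71e-06) and Btg2 (1.51, adjusted p = 1.59e-05). At an adjusted p under 0.05 alone 8 were higher and 1 lower there (32.6% of all genes).

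Among kinases and other regulators that act on FOXO1, 6 of 17 fell on stimulation and 0 rose by limma's call. At an adjusted p under 0.05 alone 3 were higher and 9 lower (68.7% of all genes). The kinase Sgk1, which phosphorylates FOXO factors, fell by 2.96 (adjusted p = 3.29e-09). With TRAIL 6 of 17 rose and 0 fell by limma's call, led by Sgk1 (3.20) and the deacetylase Sirt1 (1.70). At an adjusted p under 0.05 alone 8 were higher and 3 lower (67.1% of all genes). In the list of TXNIP partners and glucose sensing, 5 of 11 rose on stimulation, led by the hexokinase Hk2 (4.18, adjusted p = 1.72e-08) and thioredoxin, Txn1 (2.92), and 8 of 11 fell with TRAIL, again led by Hk2 (-3.79) and Txn1 (-2.48). Against medium, TRAIL-treated cells had higher Slc2a1, a glucose transporter gene (1.01, adjusted p = 0.000165, but short of a call without medium replicate 1, at 0.92, or TRAIL replicate 2, at 0.98), and lower Ddit4 (-1.37).

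Paralogs of the members did not all move with them. Of 21 tested, 10 fell and 1 rose on stimulation, with Arrdc3, an arrestin-fold relative of Txnip, at -2.45 and Tcf7l2 at -2.07 (adjusted p = 3.16e-07, and -0.89 with a pseudocount of 5, which ends its call), and Ikzf4 the gene that rose (1.66). With TRAIL against stimulation alone 9 of 21 rose, led by Tcf7l2 (2.26) and Arrdc3 (2.19), and Ikzf4 fell by 2.00. Ets2, an ETS family member, was 2.13 higher in TRAIL-treated than in medium cells (adjusted p = 1.71e-06). Of 24 cofactors, 3 rose and 3 fell on stimulation, with Mafg at 1.80, Gata3 at 1.60, Bcl9l at -2.22 and the corepressor Tle4 at -2.01. With TRAIL 6 of the cofactors rose by limma's call, led by Myb (2.25) and Tle4 (2.17), and 4 fell. At an adjusted p under 0.05 alone 7 were higher and 9 lower with TRAIL (67.1% of all genes). The effector and activation factors ran opposite to most members, with 11 of 14 higher and 1 lower on stimulation, led by Nfil3 (5.19) and the IL-2 receptor alpha chain Il2ra (5.11), and 10 of 14 lower with TRAIL, led by Il2ra (-5.16) and Zbtb32 (-3.65). The gene that fell on stimulation was Zeb2 (-1.34), and with TRAIL Rora (1.21) and Zeb2 (1.04) rose, calls that both ended without stimulated replicate 1 (0.98 and 0.80), and that of Zeb2 also without TRAIL replicate 1 (0.98) or 2 (0.99).

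In TRAIL-treated against medium cells, where 0 of 10 members were called by limma (2 at an unadjusted p under 0.05, both lower), 10 list genes were called higher. Among them were 3 effector factors, Bhlhe40 (1.47, named after its value was seen), Nfil3 (2.58, adjusted p = 2.86e-06) and Irf4 (1.66, adjusted p = 2.74e-05), and, from the IL-7 receptor signalling list, the kinase Pim1 (1.80, adjusted p = 1.18e-06) and the repressor Gfi1 (1.32, adjusted p = 4.52e-06). Mafk, a small Maf partner of BACH proteins, was 1.61 higher (adjusted p = 5.3e-06).

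**Figure D5:**
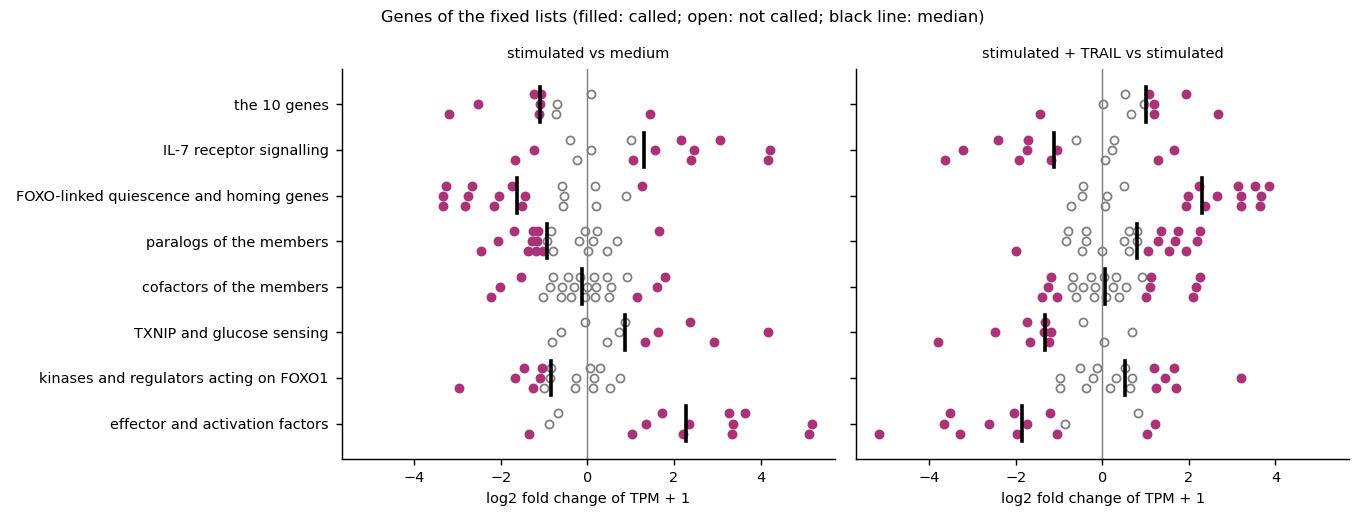
Log2 fold change of TPM + 1 for the 10 genes and for the genes of 7 lists, filled where called and open where not, with a black line at each list's median, for stimulated against medium (left) and for TRAIL-treated against stimulated cells (right). The FOXO-linked list has medians of -1.62 and 2.31 and the effector list has medians of 2.27 and -1.86 in the 2 comparisons, which share the stimulated libraries.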

How the data were processed

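RNA-seq libraries of CD4+ T cells in 3 groups of 3 were grouped by their GEO labels. Per the labels and the paper's methods, the authors trimmed reads with Trimmomatic 0.36, aligned them with HISAT2 2.1.0 and used SAMtools 1.2, StringTie 2.1.2 and DESeq2. The labels name GRCh38, whereas the paper names GRCm38 and the deposited loci are mouse GRCm38 (99.3% of 55141 genes at the GENCODE M21 locus). The deposited values are TPM, made by the authors with a program and annotation release not given in the sources used here. TPM keeps no depth, so counting error is unknown, and values are shares of each library's transcripts. Most unexpressed genes are listed at 0.0001 TPM, and 305 values lie below it. No strand setting is known, so antisense reads cannot be told apart, but the highest overlapping gene, antisense to Lef1, reached 8.05 TPM in mean.

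From TPM, log2(TPM + 1) was fitted in limma 3.58.1 (R 4.3.3, lmFit and eBayes with a trend) over 15536 genes in all 9 libraries, without a replicate block, with Benjamini-Hochberg adjustment. On simulated data 96 to 99% of 200 changed genes were recovered with at most 3 false calls. There only 200 of 15536 genes changed, by more than most members did on stimulation, and the noise was independent between libraries. These rates therefore do not carry over to the calls above. Single comparisons of 3 against 3 by an exact permutation test cannot go below a two-sided p of 0.1. Tables and figures used Python 3.11.15, pandas 2.3.3 and matplotlib 3.10.9. The members and lists were chosen with earlier results of these data known. The values of 1 marker gene are not reported here. Named list genes are the up to 2 called genes with the largest rise and fall of each list and comparison. Alternatives covered the pseudocount, filter, scaling, trend, block, threshold and each library left out.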

Additional observations from a re-analysis of the deposited data

How the results depend on the processing

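The count of members called in stimulated against medium libraries was 7 in the fit of all libraries and 5 to 7 with single libraries left out. It moved to 4 under median-of-ratios scaling, where Tcf7 (-0.94), Lef1 (-0.97) and Foxp1 (-0.91) missed the fold and which shifted the median of all genes from -0.15 to -0.01. With TRAIL against stimulation alone the count was 6, and 5 to 7 with single libraries left out, with Foxp1 past the fold under quantile normalization (1.11) and without stimulated replicate 3 (1.2). Against medium it was 0. By adjusted p alone the counts were 9, 9 and 2 in the 3 comparisons. Il7r and Txnip kept their direction in every alternative run in all 3 comparisons.

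Small uncalled differences changed sign. Bach2 ranged from -0.0646 to 0.383 on stimulation and from -0.27 to 0.18 with TRAIL with single libraries left out. In TRAIL-treated against medium cells, Tcf7 (0.16), Foxo1 (0.16), Foxp1 (0.0802) and Ikzf1 (0.12) turned positive under median-of-ratios scaling and Foxo1 (0.12) under quantile normalization. With single libraries left out Tcf7 ranged from -0.13 to 0.10, Lef1 from -0.036 to 0.19, Foxo1 from -0.11 to 0.10, Satb1 from -0.0853 to 0.13 and Ikzf1 from -0.14 to 0.0451. The fixed lists' totals stayed within 1.5 times under all alternatives run for them. Same-numbered libraries correlated from -0.306 to 0.295 in their deviations, and differently numbered ones from -0.379 to 0.289. These overlapping ranges cannot show whether a number marks a shared mouse or day. The replicate block left the member counts at 7, 6 and 0. Of the named list genes, Tcf7l2, Rora, Zeb2 and Slc2a1 lost a call under some alternative, among them a pseudocount of 5.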
